A study of Mus musculus with 26 samples.

Results

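A list of 10 genes for extracellular matrix proteins other than collagens was followed through the *Pdgfra*/GFP+ cells of the developing mouse central nervous system. The list was set by gene symbol and its rule used no measured value: *Lum*, *Dcn*, *Bgn*, *Ogn*, *Fmod*, *Fn1*, *Fbn1*, *Fbn2*, *Postn* and *Sparc*, which are 10 of the 24350 gene rows counted. All 10 have a row in every chip's counts. The data are STRT-seq counts of single cells from 26 microfluidic C1 chips, each with 96 wells. STRT-seq counts each captured mRNA molecule at its 5′ end, so that values need no scaling by gene length before genes are compared. Mesenchymal cells of E13.5 brain, E13.5 spinal cord and P7 brain were compared, with the detection in neural cells given beside them. Those neural cells came also from chips outside the mesenchymal comparisons, P7 spinal cord among them.

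Both strains used carry GFP in cells that use the *Pdgfra* promoter, and GFP+ cells were sorted. By the study's methods the tissue was forebrain and spinal cord in the *Pdgfra*-H2BGFP strain. For the *Pdgfra*-cre-ERT/RCE strain the methods name brain tissue without naming a part. The *Pdgfra*-H2BGFP strain gave 6 chips of E13.5 brain, 3 of E13.5 spinal cord, 2 of P7 brain and 5 of P7 spinal cord, all without treatment. By the study's methods these mice were heterozygous knock-ins with a nuclear GFP under the *Pdgfra* promoter, so that 1 of the *Pdgfra* copies was altered, and some GFP outlasts *Pdgfra* expression. The *Pdgfra*-cre-ERT/RCE strain, in which tamoxifen sets a lasting GFP mark, gave 6 chips of P7 brain after tamoxifen at E12.5 (txE12.5) and 3 chips of P7 brain after tamoxifen at P3 (txP3). E13.5 tissue was dissociated mechanically and P7 tissue with papain, and the experiment numbers in the counts are nested within the groups, so age, dissociation and experiment cannot be told apart. Every E13.5 chip was *Pdgfra*-H2BGFP without treatment, whereas most P7 brain chips were *Pdgfra*-cre-ERT/RCE after tamoxifen. By the study's methods the strains also differ in genetic background. Comparisons of age are thus largely comparisons of strain and treatment as well. A further chip, chip 9, has a label and column names that disagree on the stage and was kept out of every comparison.

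The matrix around meningeal fibroblasts is built on collagen fibrils, and the genes followed here encode proteins that bind, space or anchor those fibrils. Lumican, decorin, biglycan, osteoglycin and fibromodulin are small leucine-rich proteoglycans (SLRPs), which sit on collagen fibrils, influence their diameter and, in part, hold growth factors of the TGF-β family. Fibronectin (*Fn1*) forms the early fibrils on which other matrix assembles, and the fibrillins (*Fbn1*, *Fbn2*) form microfibrils, the scaffold of elastic fibres. Periostin (*Postn*) and SPARC (*Sparc*, osteonectin) are matricellular proteins, which adjust how cells and collagen interact. *Dcn* and *Lum* are long-standing markers of vascular and leptomeningeal cells (VLMCs) in brain cell atlases.

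Several of the genes are neighbours in the genome (GRCm38). *Dcn* (chromosome 10, 97479609 to 97518143, plus strand) and *Lum* (97565128 to 97572703, plus strand) are 46984 bases apart. *Ogn* (chromosome 13, 49608046 to 49624501, plus strand) lies 15223 bases from the SLRP gene *Omd* and 40480 from *Aspn*, and *Fmod* (chromosome 1, 134037254 to 134048277, plus strand) lies 115839 bases from *Prelp*. *Fn1* is on the minus strand of chromosome 1 (71585520 to 71653200), *Fbn1* on the minus strand of chromosome 2 (125300594 to 125507993), *Postn* on chromosome 3 (54361109 to 54391037, plus strand), *Sparc* on chromosome 11 (55394500 to 55423183, minus strand) and *Bgn* on the X chromosome (73483602 to 73495933, plus strand). *Ogn*, *Fn1*, *Fbn1* and *Fbn2* overlap a gene on the opposite strand (*Cenpp*, *Apol7d*, *Gm9913* and *Gm26507*). Whether the counting kept the strand is not given in the sources used here, so reads of these pairs may not be separable.

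RefSeq promoter sequence (GRCm38.p6) was at hand for 6 of the 10 genes. The 250 bases before the start are shown for 3 of them, because *Ogn* had the largest rise between the ages among the genes tested here, *Postn* the largest fall, and *Sparc* reached the highest level of any chip. Capitals mark TATAAA on either strand or GGAATG, the core letters of a TEAD site, and the third motif searched on both strands was TGANTCA, the letters of an AP-1 site.
*Ogn* (chr13:49607765-49608014, plus strand): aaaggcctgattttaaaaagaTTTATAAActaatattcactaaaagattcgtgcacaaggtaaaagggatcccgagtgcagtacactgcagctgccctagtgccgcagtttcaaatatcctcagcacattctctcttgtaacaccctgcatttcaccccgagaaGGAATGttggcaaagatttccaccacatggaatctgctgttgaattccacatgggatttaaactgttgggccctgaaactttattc
*Postn* (chr3:54360857-54361106, plus strand): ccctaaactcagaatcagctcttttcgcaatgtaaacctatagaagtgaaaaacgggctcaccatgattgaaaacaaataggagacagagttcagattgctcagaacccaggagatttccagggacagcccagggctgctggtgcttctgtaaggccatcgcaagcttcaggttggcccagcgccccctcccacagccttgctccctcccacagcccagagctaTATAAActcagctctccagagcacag
*Sparc* (chr11:55420081-55420330, minus strand): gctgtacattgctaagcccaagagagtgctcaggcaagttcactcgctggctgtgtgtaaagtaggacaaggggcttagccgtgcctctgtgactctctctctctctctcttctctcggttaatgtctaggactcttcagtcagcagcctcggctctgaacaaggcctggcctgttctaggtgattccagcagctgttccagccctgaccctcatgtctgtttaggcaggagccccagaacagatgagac
The *Postn* stretch, which belongs to the second of its 2 listed starts, held TATAAA at -26, counted back from the start, the usual place of a TATA box. The *Ogn* stretch held TATAAA on both strands in an overlapping match at -229 and -227, and GGAATG at -86. None of the 3 motifs was in the *Sparc* stretch. That stretch precedes a RefSeq start inside the *Sparc* span given above (55394500 to 55423183), so it is not the sequence before the start of that span. Across 32851 promoters of the same length, TATAAA was present in 12.4%, GGAATG in 12.6% and TGANTCA in 6.75%, so these are matches of letters only.

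A well with at least 1000 molecules was taken as a cell, which left 1515 of 2496 wells. Of these, 322 held oligodendrocyte markers together with neuron or mesenchymal markers and were set aside. Wells with mesenchymal and neuron genes alone were kept. E13.5 chips lost 0 to 5 wells each to this rule, and txE12.5 chips 17 to 37. Of the 89 wells set aside with oligodendrocyte and mesenchymal genes, 71 were txE12.5, where 33 mesenchymal cells were kept. A fit with a collagen gate and without this rule is given at the end. The remaining 1193 cells were clustered with the 10 genes left out. Mesenchymal cells were those of 2 clusters called VLMC-like from a list of 40 markers, such as fibril collagens, *Foxc1* and *Slc6a13*. Of these markers, 39 were detected in E13.5 brain, 40 in E13.5 spinal cord and 39 in P7 brain. Whether the cells lay in the meninges was not measured. E13.5 brain held 81 mesenchymal cells, E13.5 spinal cord 63 and P7 brain 46, with a median of 3101, 4677 and 2989.5 molecules per cell. All of the E13.5 cells lay in one of the clusters, while 41 of the 46 P7 cells lay in the other.

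Chips, not cells, were the replicates, and those with at least 5 mesenchymal cells were summed: 6 of E13.5 brain, 3 of E13.5 spinal cord and 6 of P7 brain, of which 5 were txE12.5 and 1 (chip 22) was *Pdgfra*-H2BGFP. Levels are in CPM, a gene's molecules scaled to the total of a chip's summed mesenchymal cells, which held 14714 to 191995 molecules. Nothing in the labels says that the chips of a group came from separate animals, so p-values measure the spread between chips. Chips also shared experiments: 138 and 57 in E13.5 brain, 137 alone in E13.5 spinal cord, and 161, 162 and 56 in P7 brain. The fit had no term for experiment and took chips of the same experiment as independent, so its p-values may be too small. Markers of other cells moved with the groups. Neuron genes were present in 40 of 81 cells of E13.5 brain (49.4%), 30 of 63 of E13.5 spinal cord (47.6%) and 1 of 46 of P7 brain (2.17%), and all 14 neuron markers were detected at E13.5 against 8 at P7, with a summed level of 990.1 to 2659 CPM in E13.5 brain, 1003 to 1542 in E13.5 spinal cord and 179 to 439 at P7. The 10 pericyte markers summed to 1092 to 1666 CPM in E13.5 brain, 917 to 1492 in E13.5 spinal cord and 5342 to 10966 at P7, where *Kcnj8*, *Rgs5*, *Higd1b*, *Notch3* and *Acta2* were at 0 and *Vtn*, a leading gene of the P7 cluster, made up most of the sum. None of the 8 microglia markers was detected in any group. Endothelial markers (5, 3 and 2 of 8 detected) summed to 41.2 to 190 CPM in E13.5 brain, 19.9 to 93.8 in E13.5 spinal cord and 0 to 274 at P7, with *Cldn5* at 0 in every group. OPC markers (10, 10 and 9 of 12 detected) summed to 119 to 598 CPM in E13.5 brain, 151 to 298 in E13.5 spinal cord and 999 to 1893 at P7. Markers of NPs (20, 13 and 9 of 21 detected) summed to 1835 to 5952, 1684 to 3839 and 822 to 1530.3 CPM, and those of COPs, *Vcan* among them (6, 5 and 7 of 8 detected), to 884 to 2698, 1283 to 2188 and 329 to 955 CPM. The part of pericyte, endothelial, OPC, NP and COP markers in the results was not tested, and the fit without the wells that held neuron genes is given where it changes a call.

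**Figure D1:**
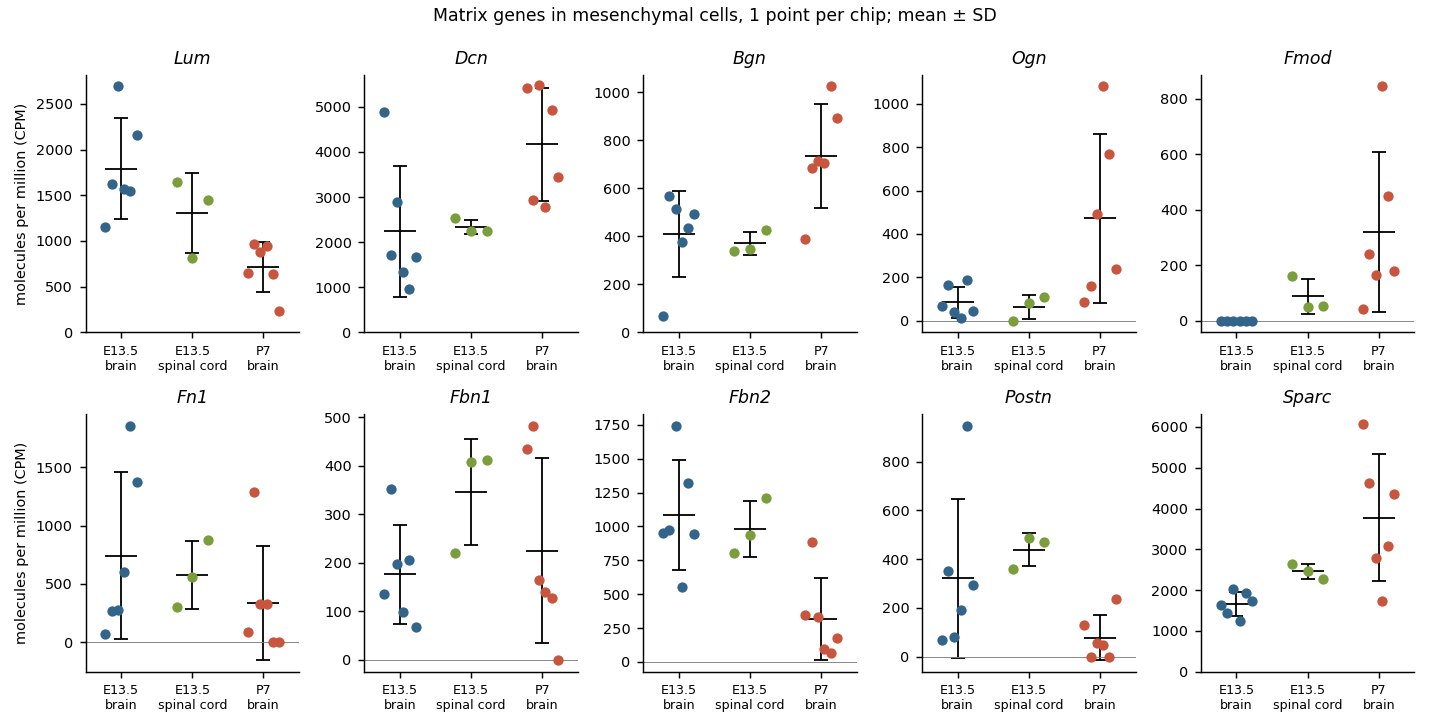
Level of each of the 10 matrix genes in mesenchymal cells, in CPM on the vertical axis, with 1 point per chip for E13.5 brain (6 chips), E13.5 spinal cord (3 chips) and P7 brain (6 chips), and bars for the mean and SD. *Lum*, *Fbn2* and *Postn* sit lower at P7 (means of 719, 317 and 78.4 CPM) than in E13.5 brain (1792, 1082 and 322 CPM), whereas *Dcn*, *Ogn*, *Fmod* and *Sparc* sit higher, and *Fmod* is at 0 on all 6 chips of E13.5 brain.

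Between P7 brain and E13.5 brain, the matrix genes changed in both directions. *Ogn*, *Dcn* and *Sparc* were higher at P7 and *Lum*, *Fbn2* and *Postn* were lower (edgeR quasi-likelihood test, adjusted p under 0.05), which makes 6 called of the 9 that passed the filter on low counts. *Ogn* passed that filter only with chips 15, 16 and 17 of P7 all present, and *Postn* only with chip 24 of E13.5 brain. These chips held their highest levels, so the difference under test helped bring both genes into the count. Fitted without the filter, both were still called (edgeR, 2.30, adjusted p = 0.0050, and -2.35, adjusted p = 0.0067). Among all 623 genes tested in this comparison 33.4% were called, 16.4% higher and 17.0% lower, so calls were common in general. *Bgn*, *Fn1* and *Fbn1* did not pass the threshold, and *Fmod* did not pass the filter. The median log2 difference was 0.40 over the 9 genes and -0.02 over all genes tested.

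Among the SLRPs, the pair on chromosome 10 parted by age. *Lum*, whose product keeps collagen fibrils thin and regular, ran from 1155 to 2698 CPM in E13.5 brain (median 1596) and from 238 to 966 at P7 (median 764). All 6 P7 chips lay below all 6 chips of E13.5 brain, as 9.47% of the genes tested did in one direction or the other. The log2 difference was -1.34 (SE 0.31, edgeR adjusted p = 0.0023), and *Lum* was called under all 28 alternatives, with differences of -1.05 to -3.20. E13.5 spinal cord lay between them, at 816, 1453 and 1644 CPM, with overlap to both sides. The P7 chips compared included none of txP3. On txP3 chips 18, 19 and 20, with 1, 1 and 4 mesenchymal cells, *Lum* was at 4699, 1401 and 1389 CPM, above every P7 chip compared. Chip 21 of the *Pdgfra*-H2BGFP strain, with 2 such cells, was at 308 CPM. The fall thus describes mainly txE12.5 cells.

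*Dcn*, which binds collagen and TGF-β, took the opposite course. Its level was 969 to 4893 CPM in E13.5 brain (median 1687), 2238, 2245 and 2527 in E13.5 spinal cord, and 2773 to 5483 at P7 (median 4196). Chips 1 and 3 of E13.5 brain reached into the P7 range, at 4893 CPM (72 molecules in 4 of 5 cells) and 2896 CPM, and the other 4 lay below it. The rise from E13.5 brain to P7 was 0.94 (SE 0.29, edgeR adjusted p = 0.0166). The adjusted p was 0.0593 without chip 6 (0.76), 0.0556 without the P7 cells of the cluster that E13.5 cells led (0.79), and 0.115 with only the E13.5 brain chips of experiment 138 (0.65). *Dcn* was above *Lum* on 3 of 6 chips of E13.5 brain (chips 1, 2 and 3) and on all 6 chips of P7 brain.

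*Ogn*, the osteoglycin gene, was among the lowest of the 10 at E13.5, at 11.5 to 186 CPM in brain (median 56.5) and at 0, 79.6 and 109 CPM in spinal cord. At P7 it reached 86.9 to 1081 CPM (median 366). The rise against E13.5 brain was 2.47 (SE 0.77, edgeR adjusted p = 0.0165), the largest among the 9 genes tested, and DESeq2 gave 2.37 with an adjusted p of 0.0584 (8.54% of genes called). The P7 chips differed by experiment, at 86.9 and 161 CPM in experiment 161, at 493, 770 and 1081 CPM in experiment 162 and at 238 CPM in experiment 56, so the lower P7 chips overlapped E13.5 brain. Without any 1 of chips 15, 16 or 17, *Ogn* was too low to be tested. In single cells, 22 of 46 P7 cells held an *Ogn* molecule (47.8%) against 13 of 81 (16.0%) in E13.5 brain. Thinned to 1000 molecules per cell, the shares were 26.1% and 7.41%.

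*Fmod*, the fibromodulin gene, was not detected in E13.5 brain: 0 of 342960 molecules and 0 of 81 cells, which allows a share of cells of up to 3.70%. It was present on all 3 chips of E13.5 spinal cord (49.7, 52.1 and 160.4 CPM, 23 molecules in 8 of 63 cells) and on all 6 chips of P7 brain (43.4 to 846 CPM, median 210.2, 38 molecules). Taking 3 counts as the most that E13.5 brain could hide, *Fmod* was at least 7.68-fold higher in E13.5 spinal cord and at least 36.3-fold higher in P7 brain. Of the 38 P7 molecules 18 came from chip 16, and without it the bound was 23.2-fold. It was too low for the filter of the main test. Without that filter it was called in spinal cord against brain at E13.5 (edgeR adjusted p = 0.0027, where 0.273% of 13944 genes were called) and DESeq2 gave an adjusted p of 0.0492 (0.255% called). Without the filter it was also called in P7 brain against E13.5 brain (edgeR adjusted p = 2.9e-08, 2.9% called). In P7 brain against E13.5 spinal cord it was not called (edgeR 1.46, adjusted p = 0.267, 2.92% called, and DESeq2 2.08, adjusted p = 0.0707, 6.09% called). The edgeR fit without the filter moved the median of 623 genes by 0.44, -0.20 and -0.64 in these 3 comparisons, in the order given. The spinal cord molecules were 8 in 2 cells of chip 4, 5 in 2 cells of chip 7 and 10 in 4 cells of chip 8. All 3 chips belong to experiment 137.

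*Bgn*, the biglycan gene, ran from 68.0 to 569.7 CPM in E13.5 brain (median 464), was at 341, 348 and 427 CPM in E13.5 spinal cord, and ran from 391 to 1026 CPM at P7 (median 709). The P7 chips overlapped E13.5 brain on chip 13 alone, with the other 5 at 685 CPM or more. The difference was 0.72 against E13.5 brain (SE 0.34, edgeR adjusted p = 0.101) and 1.04 against E13.5 spinal cord (SE 0.40, adjusted p = 0.0546), neither past the threshold. The other 12 SLRP genes on the list were too low to test. *Prelp* had 0, 1 and 14 molecules in E13.5 brain, E13.5 spinal cord and P7 brain, *Omd* 0, 2 and 8, and *Aspn* 0, 0 and 6, while *Epyc* had 14, 0 and 0 and *Optc* 5, 0 and 0. The sums behind these counts were 342960, 342401 and 119759 molecules.

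Of fibronectin and the fibrillins, *Fbn2* alone differed between the ages in the main test. *Fbn2*, the fibrillin of embryonic microfibrils, was at 554 to 1746 CPM in E13.5 brain (median 964) and at 802, 935 and 1208 CPM in E13.5 spinal cord. At P7 it was at 64.1 to 886 CPM (median 254). Of the P7 chips, 5 lay at 347 CPM or below, under every E13.5 chip, and chip 14 stood apart at 886 CPM, with 22 molecules in 2 of its 5 cells. The difference to E13.5 brain was -1.75 (SE 0.42, edgeR adjusted p = 0.0026) and to E13.5 spinal cord -1.49 (SE 0.46, adjusted p = 0.0183).

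*Fbn1*, the fibrillin that persists in adult tissue, showed no called difference. It was at 67.5 to 353 CPM in E13.5 brain (median 167), at 221, 408 and 411 CPM in E13.5 spinal cord, and at 0 to 483 CPM at P7 (median 153). The log2 difference was 0.40 between P7 and E13.5 brain (SE 0.58, edgeR adjusted p = 0.635) and 0.90 between the E13.5 regions (SE 0.58, adjusted p = 0.741). Summed over all cells of each group, *Fbn2* had 296 molecules and *Fbn1* 50 in E13.5 brain, 366 and 131 in E13.5 spinal cord, and 58 and 35 in P7 brain. The balance of the fibrillins was not tested.

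*Fn1* differed between the experiments of a group. In E13.5 brain it was at 68.0, 271, 278 and 606 CPM on the 4 chips of experiment 138 and at 1373 and 1855 CPM on the 2 chips of experiment 57. The E13.5 spinal cord chips were at 301, 557 and 880.2 CPM, and the P7 chips ran from 0 to 1289 CPM (median 208). The highest P7 value was chip 14, where all 32 molecules came from 1 of 5 cells. The difference between P7 and E13.5 brain was -1.22 (SE 0.67, edgeR adjusted p = 0.156), and -2.44 without chip 14 (adjusted p = 0.0135). By cells, 47 of 81 cells of E13.5 brain held an *Fn1* molecule (58.0%), 47 of 63 of E13.5 spinal cord (74.6%) and 9 of 46 of P7 brain (19.6%). Thinned to 1000 molecules per cell, the shares were 44.4%, 44.4% and 13.0%.

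The matricellular genes moved apart. *Postn*, whose product binds collagen and other matrix proteins, was at 68.0 to 948 CPM in E13.5 brain (median 242), at 361, 469 and 487 CPM in E13.5 spinal cord and at 0 to 238 CPM at P7 (median 50.9). It was undetected on 2 P7 chips and had 1 to 4 molecules on each of the other 4. The difference was -2.29 against E13.5 brain (SE 0.72, edgeR adjusted p = 0.0178) and -2.44 against E13.5 spinal cord (SE 0.76, adjusted p = 0.0197). *Postn* was too low to be tested against E13.5 brain once chip 24, its highest chip, was left out. Without the wells that held neuron genes, which left 12 of the 15 chips, the differences were -2.10 (adjusted p = 0.0507) and -2.04 (adjusted p = 0.0580).

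*Sparc*, whose collagen-binding product is secreted by many mesenchymal cells, was seen in most mesenchymal cells of every group. Its level was 1235 to 2023 CPM in E13.5 brain (median 1682), at 2281, 2457 and 2647 CPM in E13.5 spinal cord and at 1739 to 6080.1 CPM at P7 (median 3713). The P7 chips of experiment 161 were the highest, at 4631 and 6080.1 CPM, and chip 16 of experiment 162 the lowest. The rise from E13.5 brain to P7 was 1.11 (SE 0.26, edgeR adjusted p = 0.0024). Without the wells that held neuron genes it was 0.90 (adjusted p = 0.0567). *Sparc* was detected in 45 of 46 P7 cells and 72 of 81 cells of E13.5 brain.

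**Figure D2:**
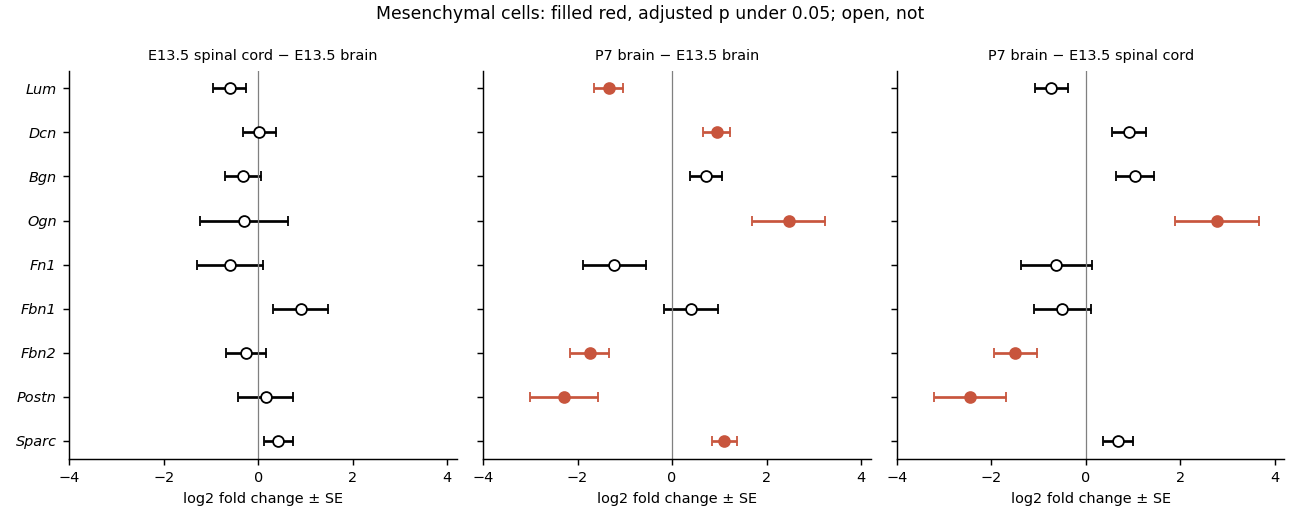
Log2 fold change with its SE on the horizontal axis for the 9 genes that passed the filter on low counts, in the 3 comparisons of mesenchymal cells (spinal cord against brain at E13.5, P7 brain against E13.5 brain, P7 brain against E13.5 spinal cord). Filled red points have an edgeR adjusted p under 0.05: none in the first panel, 6 in the second and 3 in the third, and *Fmod* is not drawn.

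P7 brain mesenchymal cells were also compared with those of E13.5 spinal cord. *Ogn* was higher (2.78, SE 0.89, edgeR adjusted p = 0.0223, and 0.0640 with DESeq2, which called 6.09% of genes) and *Fbn2* and *Postn* were lower, 3 of 9 genes, where 25.7% of all genes were called (11.9% higher, 13.8% lower). This comparison differs in region as well as age and shares its chips with the other comparisons. *Ogn* again entered it only with chips 15, 16 and 17 of P7 all present. *Dcn* (0.92, adjusted p = 0.0630) and *Bgn* (1.04, adjusted p = 0.0546) missed the threshold, and the differences of *Sparc* and *Lum* were 0.68 (adjusted p = 0.110) and -0.73 (adjusted p = 0.130). The P7 chips lay above all spinal cord chips for *Dcn* and below them for *Postn*, in a comparison where 27.9% of genes did not overlap. 

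Between the regions at E13.5, none of the 9 genes tested was called by edgeR, and none had an unadjusted p under 0.05, in a comparison where 1.28% of 623 genes were called, 1 higher and 7 lower (DESeq2 called 9 higher and 10 lower, with *Fmod* among them). The largest differences were *Fbn1* at 0.90, *Lum* at -0.61 (SE 0.34) and *Fn1* at -0.60 (SE 0.70). *Sparc* lay higher on all 3 spinal cord chips than on all 6 brain chips, with a difference of 0.42 (SE 0.30, adjusted p = 0.741), as 5.62% of the genes tested lay apart. *Fmod* was the other gene without overlap. Spinal cord and brain also came from different experiments at E13.5, which cannot be told apart from the regions.

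Genes of the same matrix gave the setting of these values, and the lists were chosen with earlier results of these data known. Of 23 collagen genes, 15 were tested, and in P7 brain against E13.5 brain 4 were lower, where 17.0% of all genes tested were lower, and none was higher, with a median of -0.49. They included *Col23a1* (-1.998, SE 0.59, edgeR adjusted p = 0.0117) and *Col5a2*, which joins fibrils of type I collagen (-1.43, SE 0.39, adjusted p = 0.0080). *Col1a1*, the main fibril collagen, had means of 1354 ± 576 CPM in E13.5 brain (SD, n = 6), 1704 ± 126 in E13.5 spinal cord (n = 3) and 1196 ± 425 at P7 (n = 6). Against E13.5 spinal cord 5 collagens were lower (13.8% of all genes) and none higher, among them *Col11a1* (-1.94, adjusted p = 0.0183) and *Col6a3* (-1.68, adjusted p = 0.0075).

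Of 28 other matricellular and adhesive glycoproteins, 5 were tested and 3 were higher at P7 in both comparisons with E13.5, with medians of 1.60 against brain and 2.27 against spinal cord, where 16.4% and 11.9% of all genes tested were higher. *Vtn*, vitronectin, which is also on the pericyte list, rose from 1169 CPM in E13.5 brain to 6480 CPM at P7 (2.55, SE 0.27, edgeR adjusted p = 3.2e-07). *Cyr61*, a matricellular gene responsive to stretch, rose by 1.71 (SE 0.53, adjusted p = 0.0160), and *Sparcl1*, a relative of *Sparc*, rose by 2.30 against spinal cord (SE 0.36, adjusted p = 4.9e-05). Among 15 genes for collagen processing 3 were tested, and *Pcolce*, which helps cleave procollagen, rose by 1.98 (SE 0.42, adjusted p = 0.0014).

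The remaining lists showed little that could be tested. None of 7 basement membrane genes tested of 14, of 1 elastic fibre gene tested of 22 or of 1 matrix receptor tested of 24 was called in either comparison of age. Of 12 genes of neural matrix only *Vcan*, versican, was tested, and it was lower at P7 than in E13.5 brain (-3.57, SE 0.50, edgeR adjusted p = 1.1e-05) and than in E13.5 spinal cord (-4.03). In spinal cord against brain at E13.5 no gene of any of these lists was called.

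The P7 cells came from 3 sources that could not be tested against each other, since chips with at least 5 mesenchymal cells were 5 of txE12.5, 1 of *Pdgfra*-H2BGFP and none of txP3. Over all their mesenchymal cells, *Dcn* was at 4215 CPM in txE12.5 (33 cells), 3945 in txP3 (6 cells) and 3520.2 in *Pdgfra*-H2BGFP (7 cells), and *Sparc* at 3797, 6478 and 4379 CPM. *Lum* stood furthest apart, at 825 CPM in txE12.5, 2326 in txP3 and 258 in *Pdgfra*-H2BGFP. *Fn1* was found only in txE12.5 (47 molecules in 9 of 33 cells), with 0 of 6 and 0 of 7 cells in the others. At these numbers of cells no order between the lines can be read.

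The library labelled P7 spinal cord on chip 23 held 13 mesenchymal cells, all in the cluster that E13.5 cells led, and 14 cells in all. It was kept out of the tests. Its levels were 893 CPM for *Lum*, 2345 for *Dcn*, 1005 for *Fn1*, 1228 for *Fbn2* and 2773 for *Sparc*, with *Fmod* at 186 CPM. *Fbn2* there lay above all 6 P7 brain chips and within the range of E13.5 brain. The other 4 chips of P7 spinal cord together held 1 mesenchymal cell, so no mesenchymal level is given for P7 spinal cord.

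Single mesenchymal cells held several of the genes. With each cell thinned to 1000 molecules, the median cell held 3 of the 10 genes in E13.5 brain, 4 in E13.5 spinal cord and 4 in P7 brain. At least 3 genes were seen in 75.3%, 85.7% and 80.4% of cells, and at least 5 in 25.9%, 39.7% and 23.9%. No gene of the 10 was seen in 0 of 81, 2 of 63 and 0 of 46 cells. The pairs that shared most cells were made of the genes seen most often: *Dcn* with *Sparc* in 34 of 46 cells of P7 brain, where they were seen in 37 and 39, and in 38 of 63 of E13.5 spinal cord (45 and 50), and *Lum* with *Sparc* in 36 of 81 of E13.5 brain (52 each). These counts do not show that the genes are expressed jointly.

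**Figure D3:**
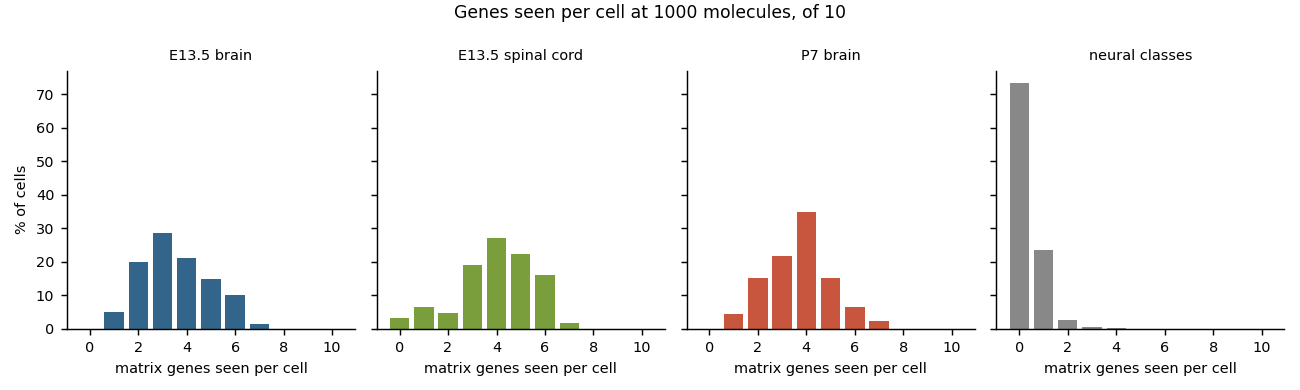
Share of cells (vertical axis, %) by the number of the 10 matrix genes seen per cell after thinning to 1000 molecules (horizontal axis), for mesenchymal cells of E13.5 brain (n = 81), E13.5 spinal cord (n = 63) and P7 brain (n = 46) and for neural cells (n = 695). The mesenchymal groups centre on 3 or 4 genes, and 73.4% of neural cells show none.

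Over the 15 chips of assigned groups, the log levels of *Lum* rose and fell with *Fn1* (Pearson r = 0.69) and *Fbn2* (0.68), and against *Sparc* (-0.65) and *Fmod* (-0.60). *Fbn2* ran most strongly against *Fmod* (-0.74). These chips share groups and experiments and differ in depth, so the values describe the chips only. Among 4276 genes of at least 50 CPM on average, those most like each gene over the same chips were *Cbx5* and *Nnat* for *Lum* (0.88 each), *Gjb2* (0.83) and *Minos1* (0.82) for *Dcn*, *Nbl1* (0.83) and *Gjb6* (0.81) for *Ogn*, and *Slc3a2* and *Drg1* (0.88 each) for *Bgn*. For *Fmod* they were *Ctsh* (0.94) and *Igf2* (0.88), and for *Sparc* *Ctsl* and *Igf2* (0.83 each). *Fbn2* was most like *Chd8* and *Arid1b* (0.93 each), *Postn* like *Eml4* (0.91) and *Ptprf* (0.89), *Fn1* like *Rfx7* (0.88) and *Gm9855* (0.86), and *Fbn1* like *Atp2a2* (0.88) and *Ankrd11* (0.86).

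In neural cells most of the matrix genes were near the limit of detection, with *Sparc* and *Fbn2* as the exceptions. The neural cells were 695 cells of assigned chips in classes like OPCs, committed precursors (COPs), newly formed oligodendrocytes (NFOLs), neural progenitors (NPs) and neurons, with a median of 2659 molecules. At least 1 molecule of any of the 10 genes was seen in 317 of them (45.6%, exact 95% interval 41.9 to 49.4%), and in 26.6% after thinning to 1000 molecules. *Sparc* was seen in 28.3% of neural cells (173 CPM, 17.0% after thinning) and *Fbn2* in 13.4% (63.0 CPM, 5.76%). *Dcn* followed with 4.60%, *Lum* with 3.02%, *Bgn* with 2.73%, *Fbn1* with 2.45%, *Fn1* with 2.16% and *Postn* with 1.44%, and *Ogn* and *Fmod* were seen in 0.863% each. The summed level of the 10 genes was 312 CPM in neural cells, against 7441 in mesenchymal cells of E13.5 brain, 9118 in E13.5 spinal cord and 11820 in P7 brain, over all cells of each class.

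Mesenchymal RNA was also looked for in the neural wells themselves. In the 576 neural wells without a molecule of *Col1a1*, *Col1a2* or *Col3a1* *Sparc* was seen in 26.4% and *Fbn2* in 13.0%, against 28.3% and 13.4% in all neural cells, whereas *Dcn* was at 2.95%, *Lum* at 1.22% and *Fn1* at 0.521%, and *Postn* was seen in none, which allows up to 0.521%. Such limits concern counting error alone, and they apply to cells in which a molecule was counted, not to cells that express the gene.

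*Sparc* was seen in each neural class, and its share differed between groups of chips within a class. Over all chips it was present in 35.4% of 319 OPC-like cells (299 CPM), 24.4% of 127 COP-like, 27.3% of 44 NFOL-like, 23.2% of 138 NP-like and 13.4% of 67 neuron-like cells, and after thinning in 23.5, 11.8, 9.09, 12.3 and 10.4%. These pooled shares mix groups, since 59 of the COP-like and 30 of the NFOL-like cells came from P7 spinal cord. There, *Sparc* was seen in 26.7% of OPC-like and 10.2% of COP-like cells, in txE12.5 in 43.7% and 35.9%, and in P7 brain of the *Pdgfra*-H2BGFP strain in 26.5% and 40.0%, so no single order of the classes held. At Leiden resolution 2.0, a cluster of 72 cells named OPC-like had *Aqp4*, an astrocyte marker, among its leading genes. *Sparc* was not counted apart in that cluster. *Fbn2* was seen in 10.1 to 19.7% of the cells of each neural class over all chips, and in 2.99 to 9.09% after thinning. In COP-like cells it ran from 5.0% in P7 brain of the *Pdgfra*-H2BGFP strain to 23.7% in P7 spinal cord. *Lum* was seen in 0 of 319 OPC-like cells, which allows up to 0.940%, but in 13.8% of NP-like cells, all of them from E13.5 brain, where *Dcn* was at 11.6%.

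**Figure D4:**
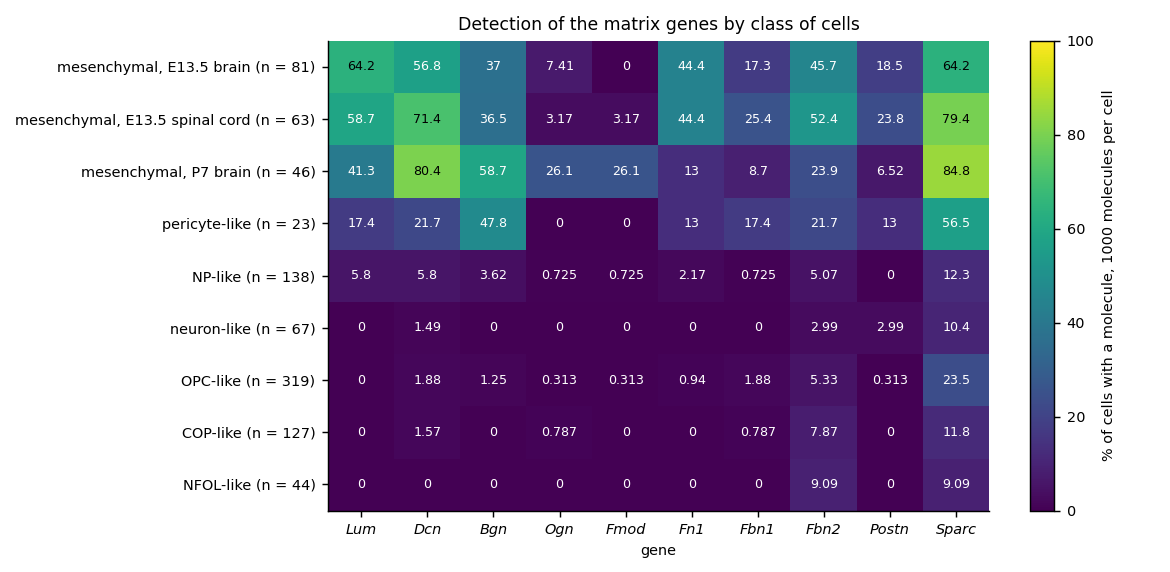
Share of cells with at least 1 molecule of each matrix gene (columns) after thinning every cell to 1000 molecules, by class of cells (rows, with the number of cells), written in each field in % and shown on a colour scale from 0 to 100%. Mesenchymal rows run up to 84.8% (*Sparc* at P7), and the neural rows reach 5.8% for *Lum* and *Dcn* in NP-like cells and 23.5% for *Sparc* in OPC-like cells.

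Only *Sparc* passed the filter on low counts in neural cells. In P7 brain against E13.5 brain it was higher by 0.85 (SE 0.35, edgeR adjusted p = 0.0373), in a comparison where 54.2% of 2393 genes were called (30.5% higher, 23.7% lower) and where the classes differ by age, with NP-like cells at E13.5 only. With another scaling (RLE) the split of all calls moved from 730 higher and 566 lower to 904 higher and 418 lower. DESeq2 (30.2% called) called *Lum* (-5.20) and *Fn1* (-3.07) lower and *Fbn2* (1.36) and *Sparc* (1.11) higher, and edgeR without the filter (22.0% called) called *Lum* and *Fn1* lower and *Sparc* higher. The call of *Sparc* was lost without any one of chips 1, 2, 3, 6, 13, 16 or 19, and its difference was -0.12 when an unnamed E13.5 cluster led by *Ttr* was counted as neural. Between the regions at E13.5 its difference was -1.82 in spinal cord against brain (SE 0.67, adjusted p = 0.217), where 3.48% of 2555 genes were called. In neural cells of P7 spinal cord (119 cells, not tested) *Fbn2* was seen in 19.3% and *Sparc* in 16.8%, and each of the other genes in at most 1.68%.

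*Sparc* and *Bgn* were the genes seen most often in a small class of pericyte-like cells. Of these 23 cells, which held a median of 6793 molecules, 91.3% held *Sparc* (1244 CPM), 82.6% *Bgn* (629 CPM), 73.9% *Fn1*, 60.9% *Fbn2* and 30.4% each *Lum* and *Dcn*, and none held *Fmod*, which allows up to 13.0%. Thinned to 1000 molecules, *Sparc* was seen in 56.5% and *Bgn* in 47.8% of them, *Dcn* and *Fbn2* in 21.7% each, *Lum* in 17.4% and *Fn1* in 13.0%, so that *Fn1* and *Fbn2* no longer stood above *Lum* and *Dcn*. The clusters were made from the same cells, so the difference between classes is a description.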

How the data were processed

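Single GFP+ cells were captured on Fluidigm C1 chips and sequenced by STRT-seq. The authors deposited a count table per chip, with molecules (UMIs) per gene and well, not normalized and with wells not filtered, and the build named in the submitters' processing notes is mm10. For the aligner, counter and annotation: not given in the sources used here.

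Wells of at least 1000 molecules were kept as cells. Wells that held 3 or more molecules over 2 or more genes in both of a pair of marker sets (oligodendrocyte with neuron, or oligodendrocyte with mesenchymal) were set aside as doublets, 322 in all. Cells were clustered with scanpy 1.11.5 (2000 variable genes without the 10 genes, 30 components, 15 neighbours, Leiden resolution 1), and the rule for naming clusters was settled after the clusters were seen, so differences from the study may come from rebuilt names. Counts were summed per chip and class and tested with edgeR 4.0.16 in R 4.3.3 (quasi-likelihood, TMM, its filter on low counts, Benjamini-Hochberg adjustment, threshold 0.05). DESeq2 1.42.0 was an alternative, and the scripts were tested on simulated data. To compare shares of cells, each cell was thinned to 1000 molecules. The genes, marker lists, matrix lists and tests were chosen with earlier results of these data known. Named genes were all 10 genes, and, from the matrix lists, the 3 called genes that changed most, both upwards and downwards, plus the 2 genes whose log2(CPM + 10) correlated best with each of the 10. Positions are from GENCODE M21. Chip 9 and the library labelled P7 spinal cord on chip 23 were kept out of all tests. Exact intervals and limits cover counting error only.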

Additional observations from a re-analysis of the deposited data

Results flagged for a closer look

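In 19 groups of chips looked at, 3 had a chip far from the rest. The limit used gives about 1 in 20 by chance for normally distributed values. CPM from few cells and low counts need not be so distributed, so the rate by chance is not known here. Chip 14 of P7 brain was high for *Fbn2* (886 CPM, 22 molecules in 2 of 5 cells) and for *Fn1* (1289 CPM, 32 molecules in 1 of 5 cells). Chip 24 of E13.5 brain was high for *Postn* (948 CPM, 46 molecules in 8 of 18 cells).

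The matrix genes were also counted in cells that entered no comparison. The 10 genes summed to 312 CPM in neural cells and to 7441, 9118 and 11820 CPM in mesenchymal cells of E13.5 brain, E13.5 spinal cord and P7 brain. Mesenchymal cells of chip 9 reached 10289 CPM and those of chip 23 reached 9195 CPM. Wells with both oligodendrocyte and mesenchymal genes, set aside as doublets, held 7273 CPM. The unnamed cluster whose 76 wells all held mesenchymal and neuron genes held 4679 CPM, the pericyte-like cells 3696 CPM, the 13 cells led by haemoglobin genes 3814 CPM and the cluster led by *Ttr* 1108 CPM.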

How the results depend on the processing

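Depth limits these results most at P7, where a chip gave 5 to 8 mesenchymal cells and 15594 to 24832 molecules, so that 1 cell can set a chip's value, as for *Fn1* and *Fbn2* on chip 14. No paired analysis was possible because replicate numbers in the labels are not shared between groups. Of 673 single-gene alternatives, 596 kept direction and side of the threshold, 29 lost a call, 21 gained one and 27 turned direction. No called difference of P7 mesenchymal cells turned direction. Fitting without the filter moved the median of the 623 genes by 0.44, -0.20 and -0.64 in the regions at E13.5, P7 against E13.5 brain and P7 against E13.5 spinal cord. Requiring 10 cells per chip left no P7 chip, and the *Pdgfra*-H2BGFP line left 1 (chip 22), assumed to vary like the other groups. Where values changed, the cause was not tested. The alternatives with 3 cells per chip, the mixed cluster, the P7 cells of the E13.5-led cluster, the *Ttr*-led cluster, the missing doublet rule and the bound of *Fmod* without each chip (5.86 to 9.88 for E13.5 spinal cord, 23.2 to 43.7 for P7) were chosen after seeing the data.

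Between the regions at E13.5, 0 of the genes were called, and 1 (*Fmod*) with DESeq2 or without the filter. Calls over all genes were 8, and 19 with DESeq2, 38 without the filter (28 higher, 10 lower), 4 without wells holding neuron genes, 5 with E13.5 brain from experiment 138 alone, and 4 to 10 leaving out each chip. None of the following was called. Without the filter *Bgn* was 0.14, *Fbn2* 0.28 and *Ogn* 0.26. *Dcn* turned to -0.17 with the mixed cluster, -0.20 with experiment 138 alone, -0.023 with all matrix genes out of the clustering, -0.14 at Leiden resolution 0.5, and -0.19 and -0.18 with a collagen gate with and without the doublet rule. Without wells holding neuron genes *Fbn2* was 0.091, *Ogn* 0.069 and *Postn* -0.059. *Ogn* was 0.35 and *Fn1* 0.64 with experiment 138 alone, *Ogn* 0.11 with matrix genes out of the clustering, and *Postn* -0.089 with 10 cells per chip. Leaving out each chip, *Dcn* ran from -0.10 to 0.37, *Fn1* from -0.97 to 0.034, *Ogn* from -0.86 to 0.39 and *Postn* from -0.016 to 0.34.

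For P7 against E13.5 brain, 6 were called, 5 to 7 leaving out each chip and 1 with the *Pdgfra*-H2BGFP line alone, where *Fbn1* was -6.53 at 0 molecules. Calls over all genes were 208, and 452 with DESeq2, 405 without the filter (127 higher, 278 lower), 135 without wells holding neuron genes, 93 with brain chips alone (308 tested), 449 with the gate without the doublet rule, 36 with the *Pdgfra*-H2BGFP line, and 178 to 247 leaving out each chip. *Dcn* was also lost without the filter (adjusted p = 0.103) and with the gate without the doublet rule (0.0677). *Fn1* was called without the filter (-1.29) and without wells holding neuron genes (-2.67). The latter fit also lacked chips 1, 3 and 14, and chip 14 was the P7 chip with the highest *Fn1* level. *Postn*, *Ogn* and *Fbn1* each fell below the filter in 5 settings, for *Postn* without chip 24, and for *Ogn* without chip 15, 16 or 17, with brain chips alone and without the P7 cells of the E13.5-led cluster.

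For P7 against E13.5 spinal cord, 3 were called, 2 to 4 leaving out each chip, 6 at Leiden resolution 0.5, 5 with the mixed cluster and 1 with the *Pdgfra*-H2BGFP line. *Ogn* was not tested in 4 settings (without chip 15, 16 or 17, or the P7 cells of the E13.5-led cluster) and was lost without chip 4 (adjusted p = 0.0820) or chip 7 (0.0691) and with DESeq2 (0.0640), *Fbn2* without chip 8 (0.0758) and with the gate (0.0515), and *Bgn* was called without chip 13. Calls over all genes were 160, and 273 with DESeq2, 407 without the filter (69 higher, 338 lower), 45 with the *Pdgfra*-H2BGFP line, 357 with the gate without the doublet rule, and 109 to 177 leaving out each chip.

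In neural cells, detection of any of the genes was 45.6%, and 26.6% thinned. Between the regions at E13.5, 0 were called (0 to 0 leaving out each chip), and 1 with the *Ttr*-led cluster. Calls over all genes were 89, and 138 with that cluster, 50 without wells holding collagen molecules, and 43 to 89 leaving out each chip. For P7 against E13.5 brain 1 was called (0 to 1 leaving out each chip), 4 with DESeq2, 3 without the filter and 0 with the *Ttr*-led cluster, where *Sparc* was -0.12. Calls over all genes were 1296, and 3017 with DESeq2 (1998 higher, 1019 lower), 3189 without the filter, and 1140 to 1488 leaving out each chip.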

Other observations

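The only mesenchymal cell on the P7 spinal cord chips other than chip 23 held 4418 molecules, of which 35 were *Sparc*, 18 *Dcn*, 15 *Postn*, 14 *Lum* and 14 *Bgn*, with none of the other 5 genes. The 26 mesenchymal cells of chip 9, which has no group, had *Fmod* at 52.6 CPM, *Postn* at 575 CPM, *Ogn* at 57.0 CPM and *Fbn2* at 1145 CPM. In the 71 wells of txE12.5 set aside for holding oligodendrocyte and mesenchymal genes, 24 held *Ogn*, 16 *Fmod* and 32 *Fbn2*. Among 80 cycling cells, *Sparc* was seen in 33.8% and *Fbn2* in 18.8%, and *Fmod*, *Fn1*, *Ogn* and *Postn* in none, which allows up to 3.75%.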
